A study of Haplochromis burtoni and Eretmodus cyanostictus and Lepidiolamprologus attenuatus with 30 samples.

Results

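The genes described here are those whose RNA level differed most between 2 fish of the same species in each of 3 African cichlids at once. They number 150 of the 38425 gene IDs counted. Intestines came from Haplochromis burtoni (fish 1 and 2), Eretmodus cyanostictus (fish 3 and 4) and Lepidiolamprologus attenuatus (fish 6 and 7), and each was cut into 5 lengths of equal size, with section 1 anterior and section 5 posterior. Every section gave 1 bulk RNA library, so there were 30 libraries in 15 groups of 2. No treatment, genotype, age, sex, diet or origin of the fish is given in the labels used here, and all groups are intestine.

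The members were chosen on CPM, a gene's count scaled to a common library total, over the whole gut. Counts of the 5 sections of a fish were summed, and 12011 genes had a mean of 5 CPM or more in each species. Of these, 247 changed at least 4-fold from section 1 to section 5 in the same direction in all 3 species and were set aside, leaving 11764 eligible genes. For each of those, the log2 ratio of (CPM + 1) between the 2 fish was taken in each species, and the smallest of the 3 absolute ratios was its score. The 150 highest scores are 1.28% of the eligible genes. The differences between fish described below are therefore what the genes were chosen on, and they are given as descriptions without a test.

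Along the vertebrate intestine the anterior part carries out most digestion and uptake of lipids and small nutrients, and in teleosts the posterior part takes up intact protein. E. cyanostictus is an algae scraper, L. attenuatus a predator of fish and other animals, and H. burtoni takes mixed food. Bulk RNA of a gut section holds all layers of the wall and whatever lies on or in it. In these libraries, fewer cells of a type and less RNA per cell cannot be told apart. The table identifies genes by number and pairs no number with a name, and none of the IDs (0) matched the gene table of H. burtoni used here, so the members are described by their levels and not by function.

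Gene counts per library ran from 6311892 to 11353391, and the sums per fish from 39593469 to 46527681. The members took between 0.738% and 5.06% of a library's gene counts. The library of H. burtoni fish 2, section 4 stood apart, with the lowest depth and with 16.5% of its counts outside counted gene sequence, against 6.15% to 10.5% elsewhere. In section 1 of E. cyanostictus the 2 fish differed at least 2-fold at 32.4% of all eligible genes, the highest such share of the 15 pairs of libraries. Counts of direction, membership and grouping are also given below without these sections. The section tests of H. burtoni without a block were repeated without this single library, and the other tests were not. No test was repeated without section 1 of E. cyanostictus.

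The smallest of the 3 ratios had a median of 0.74 on the log2 scale among the members, a 1.68-fold difference, and a median of 0.10 among all eligible genes. The score was highest at 1.81, which is 3.50-fold, and at least 2-fold in all 3 species for 34 members. The border was not sharp, since the last gene inside and the first outside both scored 0.62. Median ratios of the members, without regard to sign, were 2.42-fold between the E. cyanostictus fish, 2.01-fold between those of L. attenuatus and 1.80-fold between those of H. burtoni. The widest single ratios, in the same order, were 8.72-fold, 41.2-fold and 16.6-fold. H. burtoni gave the smallest ratio for 75 members, L. attenuatus for 39 and E. cyanostictus for 36. The 95% Poisson interval of a ratio had a median half-width of 0.10 to 0.14 on the log2 scale, and the widest was 1.64, in L. attenuatus. This interval covers counting error only.

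The difference between fish changed along the gut, and it was smallest in section 5 in all 3 species. In H. burtoni the median absolute log2 difference of the members was 0.92, 1.22, 0.73, 0.93 and 0.58 in sections 1 to 5. In E. cyanostictus it was largest at the anterior end, at 2.29, 1.72, 1.10, 0.80 and 0.74. In L. attenuatus it was 1.03, 1.17, 1.29, 1.29 and 0.61, highest in the middle of the gut. Eligible genes as a whole had a similar course at a lower level: their medians were also lowest in section 5 of every species, and in E. cyanostictus they were 0.59 in section 1 and 0.25 in section 5. A difference of 2-fold or more in section 5 was found at 53 members (35.3%) in L. attenuatus, where 4.36% of eligible genes had one. It was found at 52 (34.7%) in E. cyanostictus, against 6.001%, and at 36 (24%) in H. burtoni, against 2.08%.

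**Figure D1:**
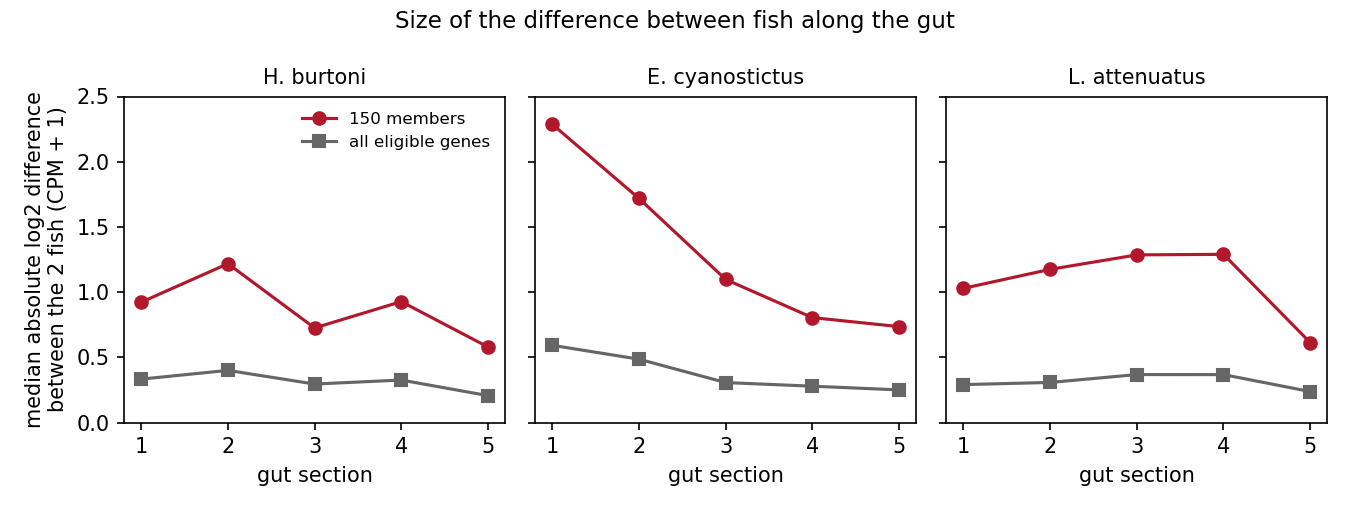
Median absolute log2 difference of (CPM + 1) between the 2 fish of a species (vertical axis) in each gut section (horizontal axis), for the 150 members (red circles) and all 11764 eligible genes (grey squares). The members lie above the eligible genes throughout, E. cyanostictus peaks at 2.29 in section 1, and section 5 is lowest in every species.

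The section with the widest difference was section 1 for 86 members (57.3%) in E. cyanostictus, against 50.1% of eligible genes. In H. burtoni it was section 2 for 54 (36%) and section 4 for 50 (33.3%), against 29.7% and 26.03%. These sections were also the most frequent among eligible genes, so they were not particular to the members. In L. attenuatus it was spread over section 3 (40 members, 26.7%), section 1 (38, 25.3%), section 4 (35, 23.3%), section 2 (25, 16.7%) and section 5 (12, 8%). The shares of eligible genes, in the same order, were 22.6%, 21.3%, 25.02%, 16.7% and 14.3%. Only 5 members (3.33%) had their widest difference in the same section of all 3 species, against 5.59% of eligible genes. The same fish was higher in all 5 sections for 100 members in L. attenuatus, 95 in E. cyanostictus and 84 in H. burtoni. Of the eligible genes, 33.5%, 38.6% and 22.4% did so. Over the other 4 sections the count was 91 without section 4 in H. burtoni and 96 without section 1 in E. cyanostictus. For 33 members (22%) this held in all 3 species at once, against 3.49% of eligible genes, and for 8 members in none. In section 4 of E. cyanostictus 45 members went against their whole-gut direction. The difference lay in the direction of the sum for 105 members (70%) there and for 139 to 147 members in each other section. Eligible genes were also lowest in section 4, at 72.7%, against 77.2% to 85.1% in the other 4 sections. The section of the drop was thus shared, but the drop was smaller among eligible genes than among the members. Left out of the count, section 4 raised the E. cyanostictus number from 95 to 130. A count over 4 sections cannot be lower than over 5, here and for the 91 and 96 above. The sections left out were chosen after the data were seen, so nothing is read from the rise. No member (0) differed 2-fold in the same direction in all 15 pairs of libraries, and 46 (30.7%) did so in all 5 sections of at least 1 species, against 2.499% of eligible genes.

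A single section held over 50% of a fish's summed section CPM, in at least 1 of the 6 fish, for 49 members (32.7%), against 4.04% of eligible genes. Summing 4 sections instead of 5 kept 89 of the 150 members without section 1, 103 without section 2, 96 without section 3, 97 without section 4 and 101 without section 5. Without section 4, which removes the H. burtoni library that stood apart, 110 of the 150 members were still at least 1.5-fold different in all 3 species, and without section 1 it was 106.

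The higher fish was fish 2 for 105 members (70%), fish 4 for 100 (66.7%) and fish 7 for 91 (60.7%), each within its own species. Of eligible genes, 54.7%, 58.1% and 42.6% were higher in these fish. Members higher in fish 2, 4 and 7 together numbered 44 (29.3%), against 13.0% of eligible genes. A further 36 (24%) were higher in fish 2, 4 and 6, where 20.3% of eligible genes lay. Fish 2, 3 and 7 were higher for 24 (16%), against 13.4% of eligible genes. The opposite of the first combination, fish 1, 3 and 6, held 14 members (9.33%), against 12.2% of eligible genes. Fish numbers do not link one species with another, so these combinations describe only which genes moved together.

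Members were next grouped by how their differences between fish ran over the 15 pairs of libraries (5 sections in each of 3 species). Average linkage on the correlation, split at a distance of 0.5, gave 4 groups of at least 10 genes that held 130 of the 150 members. Group 1 had 57 members, group 2 had 37, group 3 had 24 and group 4 had 12. Group 3 was the tightest, with a median correlation between its genes of 0.96 over the 15 pairs, against 0.74, 0.65 and 0.66 in groups 1, 2 and 4. These groups were formed from the same values that they describe, and the points share libraries. Group 3 also stayed together under other groupings, with all 24 members in 1 group at a distance of 0.4 or 0.6, without the section 4 pair of H. burtoni or without the section 1 pair of E. cyanostictus, and with 22 under complete linkage. Groups 1, 2 and 4 broke up more readily, to 25, 15 and 5 members under complete linkage.

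**Figure D2:**
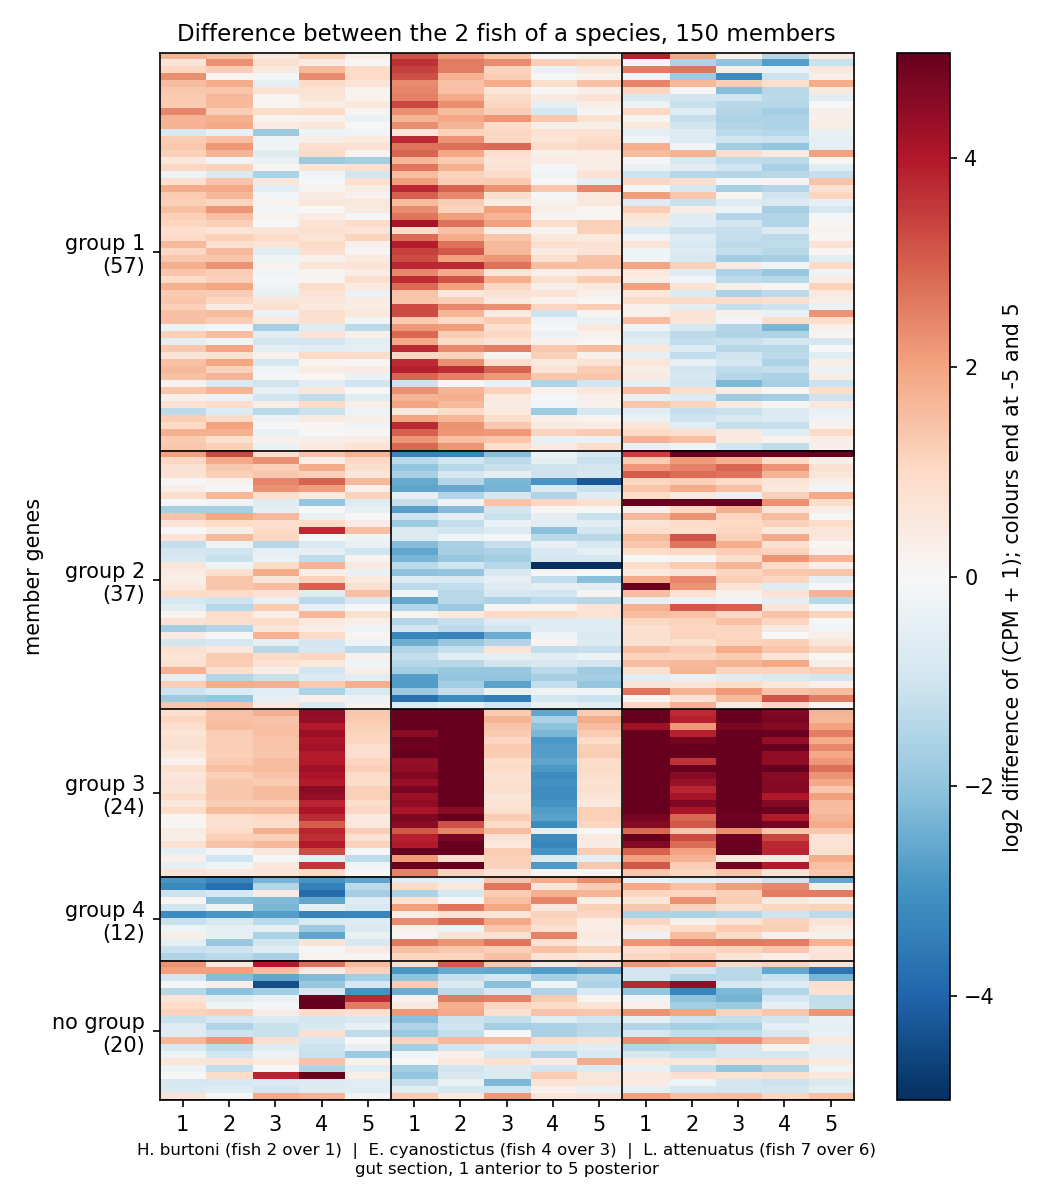
Each row is 1 of the 150 members and each column 1 gut section of 1 species; colour gives the log2 difference of (CPM + 1), fish 2 over 1, 4 over 3 and 7 over 6, with red for higher in the first-named fish. Rows are ordered by group, and group 3 (24 members) shows the deepest colours, with red in section 4 of H. burtoni, in sections 1 and 2 of E. cyanostictus and in sections 1 to 4 of L. attenuatus, and blue in section 4 of E. cyanostictus.

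Group 3 held 16 of the 25 highest-scoring members. Its genes were abundant in some sections and low in others of the same gut, and their highs fell at different places in different fish. In H. burtoni fish 1 the median level of the 24 genes was 128, 163, 351, 46.1 and 137 CPM in sections 1 to 5. In fish 2 it was 194, 386, 973, 809 and 281 CPM. Fish 2 was higher in every section, most in section 4, where the median log2 difference was 3.97 (15.6-fold). In the other 4 sections the median differences lay between 0.65 and 1.41, so the direction was the same without the library that stood apart.

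In E. cyanostictus the 2 fish had nearly opposite courses in group 3. Fish 3 had medians of 23.3, 4.70, 62.2, 226 and 67.4 CPM from section 1 to section 5, with its peak in section 4. Fish 4 had 609, 258, 144, 32.9 and 149 CPM, with its lowest level in section 4. Fish 4 was thus higher by a median log2 difference of 4.51 in section 1 and 5.16 in section 2 (22.8-fold and 35.7-fold), by 1.02 and 0.98 in sections 3 and 5, and lower in section 4 (-2.84), where 23 of the 24 genes were below fish 3. Over the whole gut the 24 genes were all higher in fish 4.

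In L. attenuatus all 24 genes were higher in fish 7 in every section. Fish 6 had medians of 0.215, 0.260, 4.41, 6.07 and 4.16 CPM in sections 1 to 5, and 8 of the 24 genes had no count in its section 1. Fish 7 had 53.1, 14.6, 151, 97.8 and 16.5 CPM. The median log2 difference was 5.38, 3.76, 5.17 and 4.47 in sections 1 to 4 and 1.77 in section 5. Because 1 is added to each CPM, these values understate the difference of genes near 0 in fish 6. Summed over the 24 genes, the level ran from 21.9 CPM in section 1 of L. attenuatus fish 6 to 36547 CPM in section 3 of H. burtoni fish 2.

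**Figure D3:**
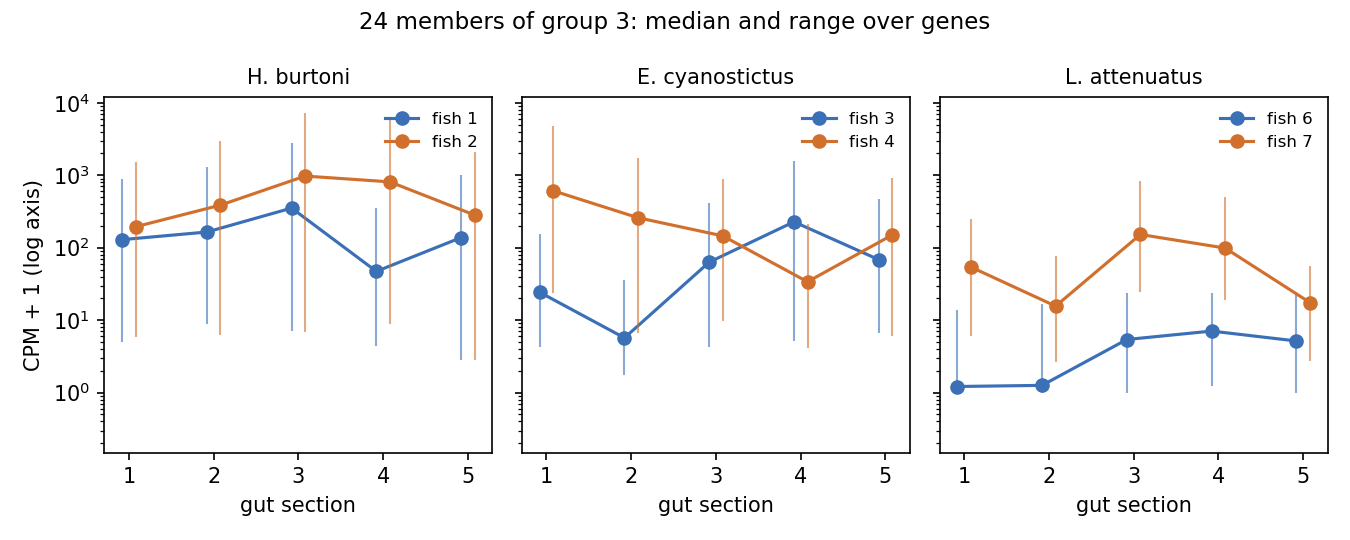
Level of the 24 genes of group 3 as CPM + 1 on a log axis, by gut section (horizontal axis); points are the median over genes in 1 library, thin vertical lines run from the lowest to the highest gene, and blue and orange mark the 2 fish of a species. The H. burtoni fish part most in section 4, the E. cyanostictus fish cross between sections 3 and 4 and again before section 5, and L. attenuatus fish 7 is above fish 6 throughout.

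Genes outside the list that followed group 3 were then counted. An eligible gene with whole-gut ratios as large as those of group 3 in all 3 species is a member by the rule. A low count outside the list is thus set in part by the rule, and nothing is read from it. Among the 11614 eligible genes that are not members, 3 correlated with the group's median course at r over 0.9 across the 15 pairs, and of the 247 genes set aside for a shared gradient none (0) did. The same count was 954 (8.21%) for group 1, 171 (1.47%) for group 2 and 8 for group 4. The groups differ in how closely their own genes follow that median: 21 of 24 members passed r over 0.9 in group 3, 26 of 57 in group 1, 8 of 37 in group 2 and 1 of 12 in group 4. The outside counts are therefore not comparable between groups.

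Group 1 was marked by the anterior gut of E. cyanostictus fish 4. Its 57 members had medians of 72.1, 71.0, 49.4, 28.6 and 37.8 CPM from section 1 to section 5 in fish 4 and of 13.3, 14.9, 20.2, 23.9 and 27.5 CPM in fish 3. The anterior end was thus the highest in one fish and the lowest in the other, and the fish were closest in sections 4 and 5. In H. burtoni fish 2 the medians were 55.8 and 54.2 CPM in sections 1 and 2, against 26.5 and 24.9 CPM in fish 1, and the fish hardly differed in section 3 (28.6 and 32.9 CPM). In L. attenuatus the difference lay in the middle of the gut, with 36.8 and 40.6 CPM in sections 3 and 4 of fish 6 against 20.002 and 20.9 CPM in fish 7. The change from section 1 to section 5 was above 0 for 50 of the 57 members in L. attenuatus, but below 0 for 51 in H. burtoni and for 45 in E. cyanostictus. Of eligible genes, 74.1% had a change above 0 in L. attenuatus, 56.5% in H. burtoni and 61.4% in E. cyanostictus. The E. cyanostictus change is taken on means of 2 fish whose group medians ran in opposite directions.

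Group 2 was marked by fish 3 and fish 7. Of its 37 members, 35 were higher in fish 3 of E. cyanostictus and 35 in fish 7 of L. attenuatus. In fish 3 the medians were 65.4, 55.9, 46.3, 31.4 and 26.1 CPM in sections 1 to 5, and in fish 4 they were 21.4, 21.1, 25.1, 17.6 and 15.6 CPM. In L. attenuatus fish 7 they were 72.2, 58.8, 49.8, 36.8 and 34.6 CPM, and in fish 6 they were 24.3, 21.2, 19.8, 15.3 and 13.2 CPM. Levels were thus highest at the anterior end in 3 of these 4 fish. In H. burtoni the direction was mixed, with 24 members higher in fish 2 and 13 in fish 1.

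Group 4 mostly rose along the gut, least uniformly in H. burtoni. Its change from section 1 to section 5 was above 0 for 10 members in L. attenuatus and 11 in E. cyanostictus. In H. burtoni it was above 0 for 8 and below 0 for 4. Of eligible genes, 74.1% had a change above 0 in L. attenuatus, 61.4% in E. cyanostictus and 56.5% in H. burtoni. A rise in itself was thus not particular to this group. In L. attenuatus its 12 members went from 5.70 CPM in section 1 to 53.3 CPM in section 5 of fish 6, and from 18.2 to 60.8 CPM in fish 7. All 12 were higher in fish 1 of H. burtoni and in fish 4 of E. cyanostictus, with median whole-gut ratios of 2.13-fold and 2.58-fold. The other 20 members fell into no group of at least 10.

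Values of 4 IDs are given in full. They are the 2 highest-scoring members whose change from section 1 to section 5, averaged over the species, was above 0 and the 2 highest-scoring ones where it was below 0. Gene ID 100708633 had the highest score of all members and belongs to group 3. In H. burtoni it was at 227, 296, 603, 84.9 and 242 CPM in sections 1 to 5 of fish 1, and at 406, 818, 2123, 1865 and 625 CPM in fish 2. In E. cyanostictus it was at 40.8, 10.5, 133, 463 and 143 CPM in fish 3, and at 1363, 585, 332, 74.9 and 343 CPM in fish 4. In L. attenuatus it was at 2.15, 2.08, 8.30, 9.69 and 9.37 CPM in fish 6, and at 121, 39.7, 350, 266 and 32.6 CPM in fish 7. Fish 2 and fish 7 were higher in every section of their species, whereas the E. cyanostictus fish crossed in section 4. Over the whole gut the ratios were 4.02-fold in H. burtoni, 3.50-fold in E. cyanostictus and 21.6-fold in L. attenuatus.

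Gene ID 100708221, ranked second and also in group 3, had a similar course. In H. burtoni it was at 160, 252, 612, 59.8 and 188 CPM in fish 1, and at 334, 705, 1628, 1280 and 462 CPM in fish 2. In E. cyanostictus it was at 13.6, 1.88, 43.3, 105 and 41.1 CPM in fish 3, and at 559, 252, 145, 34.1 and 153 CPM in fish 4. In L. attenuatus fish 6 it had 2 counts in section 1 and 0 in section 2, then 2.72, 2.70 and 2.38 CPM, and fish 7 was at 48.9, 13.7, 149, 97.7 and 9.67 CPM. Fish 2 and fish 7 were again higher in every section, and the E. cyanostictus fish again crossed in section 4. Sections did not pass the test at either ID in any species: for the change from section 1 to section 5 the log2 values of ID 100708221 were -2.38 (SE 2.52) in L. attenuatus, -1.65 (SE 1.997) in E. cyanostictus and 0.33 (SE 1.13) in H. burtoni (edgeR adjusted p = 0.573, 0.819 and 0.89).

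Gene ID 106098986, ranked ninth and in group 4, ran in opposite directions along the gut in different species. In H. burtoni it went from 115 and 14.1 CPM in section 1 of fish 1 and 2, through 55.1 and 4.90 CPM in section 2, to 15.7 and 1.68 CPM in section 5. In L. attenuatus fish 6 it was at 0.215, 0.519, 1.56, 25.7 and 107 CPM in sections 1 to 5, and in fish 7 it had 0 counts in section 1, then 0.0881, 0.719, 12.0 and 16.8 CPM. In E. cyanostictus fish 3 was slightly higher in sections 1 and 2 and fish 4 higher behind them, with 9.12 CPM in section 5 of fish 3 and 49.2 CPM in section 5 of fish 4. Fish 1 was above fish 2 in every section, by a log2 difference of 2.31 to 3.25 in absolute size.

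The rule for the 150 members used the change from section 1 to section 5 only to bar 4-fold changes shared by all 3 species. The sign of this change, averaged over species, helped to choose this ID for naming. The tests below are therefore no independent evidence of its direction. In L. attenuatus the log2 change was 8.58 (SE 1.34, edgeR adjusted p = 0.00511), with an increase in 2 of 2 fish. Its section 1 held 2 counts over both fish, so the fitted size depends on the prior count, and the ratio of pooled counts was 536-fold with a 95% counting interval from 148 to 4436. In H. burtoni the change was -3.08 (SE 1.68, adjusted p = 0.298), and it passed with fish as a block (-3.08, SE 0.28, adjusted p = 0.00112), again in 2 of 2 fish. In E. cyanostictus it did not pass without the block (1.73, SE 0.98, edgeR adjusted p = 0.636) or with it (1.33, SE 0.91, adjusted p = 0.511). Without fish 6 the L. attenuatus change was 10.18 (edgeR adjusted p = 0.404) and without fish 7 it was 8.30 (adjusted p = 0.245). The section profile itself differed between L. attenuatus and H. burtoni with the block (adjusted p = 0.000299) and not without it (adjusted p = 0.108).

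Gene ID 100700688, ranked 13th and in no group, differed at a nearly constant size along the gut of E. cyanostictus. Fish 3 was at 19.4, 20.9, 29.7, 26.8 and 19.9 CPM in sections 1 to 5 and fish 4 at 1.71, 2.82, 4.08, 3.03 and 2.47 CPM. In H. burtoni it was at 12.3, 7.62, 8.27, 14.9 and 14.4 CPM in fish 1, and at 53.3, 34.4, 25.3, 19.96 and 33.5 CPM in fish 2. In L. attenuatus the fish parted towards the posterior end, from 12.6 and 5.99 CPM in section 1 of fish 6 and 7 to 55.3 and 3.42 CPM in section 5. In each species the same fish was higher in all 5 sections. Its change from section 1 to section 5 did not pass in any species (edgeR adjusted p from 0.557 to 0.973).

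**Figure D4:**
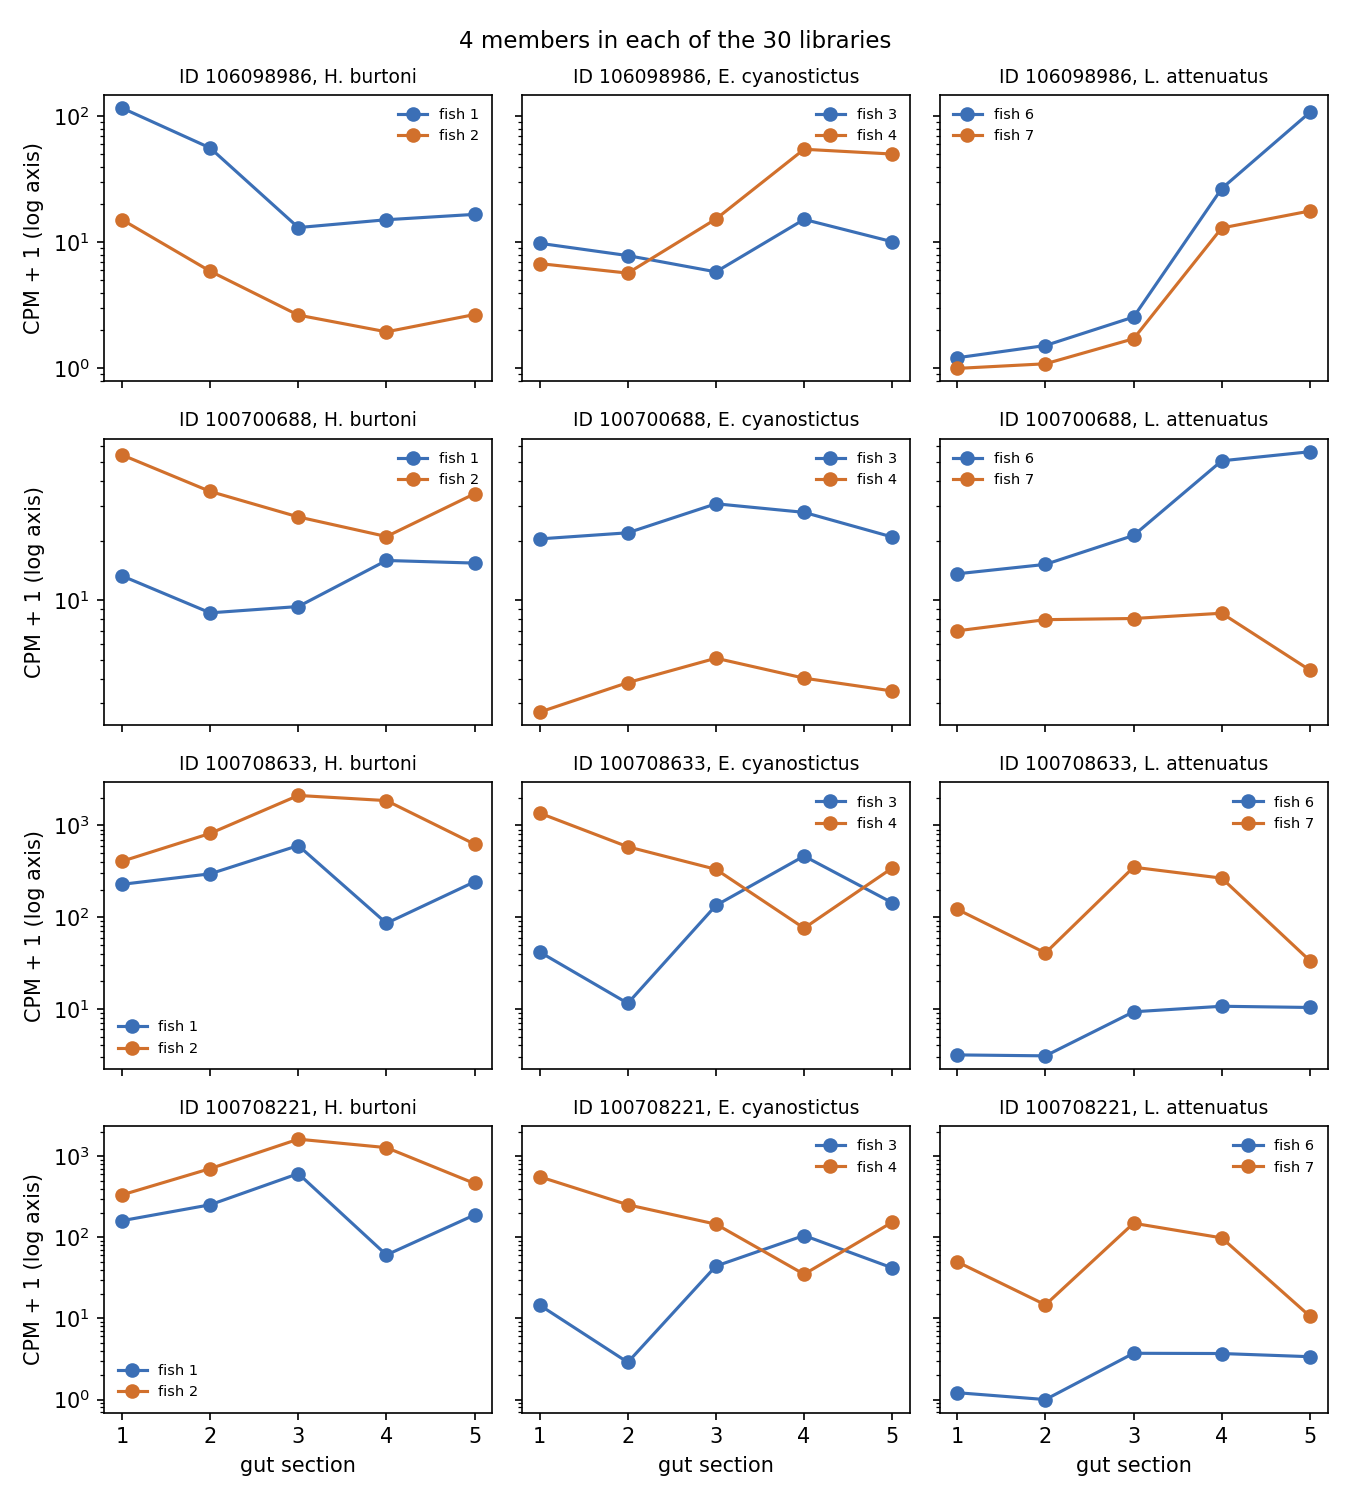
CPM + 1 on a log axis by gut section for the 4 IDs (rows) in the 3 species (columns); each point is 1 library and each line 1 fish. The fish of IDs 100708633 and 100708221 cross in section 4 of E. cyanostictus, ID 106098986 runs from high to low in H. burtoni and from low to high in L. attenuatus, and ID 100700688 keeps fish 3 and 4 apart in all 5 sections.

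Whether the members changed along the gut was then tested over all genes of the table, with edgeR's quasi-likelihood test, Benjamini-Hochberg adjustment and 2 fish per section. With 0.05 as the limit on the adjusted p, section mattered at 6 of 150 members in H. burtoni, against 4.3% of all genes tested and 3.69% of eligible genes. Without the library of fish 2, section 4 more members passed, and so did a larger share of all genes. Without either whole fish fewer members passed, and so did a smaller share of all genes. These p-values measure the spread between 2 animals. In L. attenuatus 15 members (10%) differed, where 9.35% of all genes and 9.90% of eligible genes did. Both shares were near those of other genes. The residual spread of this fit, and of the other fits without a block below, holds the gap between fish. The members were chosen for that gap, so nothing is read from the nearness of these shares. Without either L. attenuatus fish fewer members passed, and so did a smaller share of all genes. In E. cyanostictus none (0) of the members passed edgeR's test, beside 0.00482% of all genes. There, 11 members (7.33%) had an unadjusted p under 0.05, against 7.43% of all genes. DESeq2 called 12 (8%), against 3.96% of the 30004 genes with any count, a wider set than the 20733 that edgeR tested. That set has no filter on level, which the members had to pass, so nothing is read from the DESeq2 shares.

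Between the ends of the gut, 14 members differed in H. burtoni (5 higher and 9 lower in section 5), against 7.54% of all genes tested. The shares of all genes called higher and lower were 3.94% and 3.6%. In L. attenuatus 21 members differed (8 higher and 13 lower), against 15.7% of all genes, of which 7.83% were higher and 7.88% lower. Without the library of H. burtoni fish 2, section 4 more members passed in that species, and so did a larger share of all genes. With 1 fish left out, fewer members and a smaller share of all genes passed in H. burtoni and in L. attenuatus. In E. cyanostictus none (0) was called by edgeR (0.0289% of all genes, 0.0241% higher and 0.00482% lower). There, 15 members (10%) had an unadjusted p under 0.05, against 10.2% of all genes. DESeq2 called 9 (6%), against 2.99% of its wider set of genes with any count.

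More members were called when each fish had a term of its own in the model (a block), so that the sections of 1 intestine were set against each other. Among the 5 sections this fit called 64 members (42.7%) in L. attenuatus, against 22.5% of all genes and 26.2% of eligible genes. It called 34 (22.7%) in H. burtoni, against 12.3% and 13.0%, and 3 (2%) in E. cyanostictus, against 1.83% and 1.22%. Between sections 5 and 1 it called 62 members in L. attenuatus (29 higher, 33 lower), against 29% of all genes (14.6% higher, 14.4% lower) and 33.9% of eligible genes. In H. burtoni it called 49 (17 higher, 32 lower), against 17.2% of all genes (8.71% higher, 8.52% lower) and 18.8% of eligible genes. In E. cyanostictus it called 8 (2 higher, 6 lower), against 2.73% of all genes (1.46% higher, 1.28% lower) and 2.04% of eligible genes. The block takes the gap between fish, for which the members were chosen, out of the residual spread, so nothing is read from the gain. All 6 and 15 members called among sections without the block were also called with it.

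**Figure D5:**
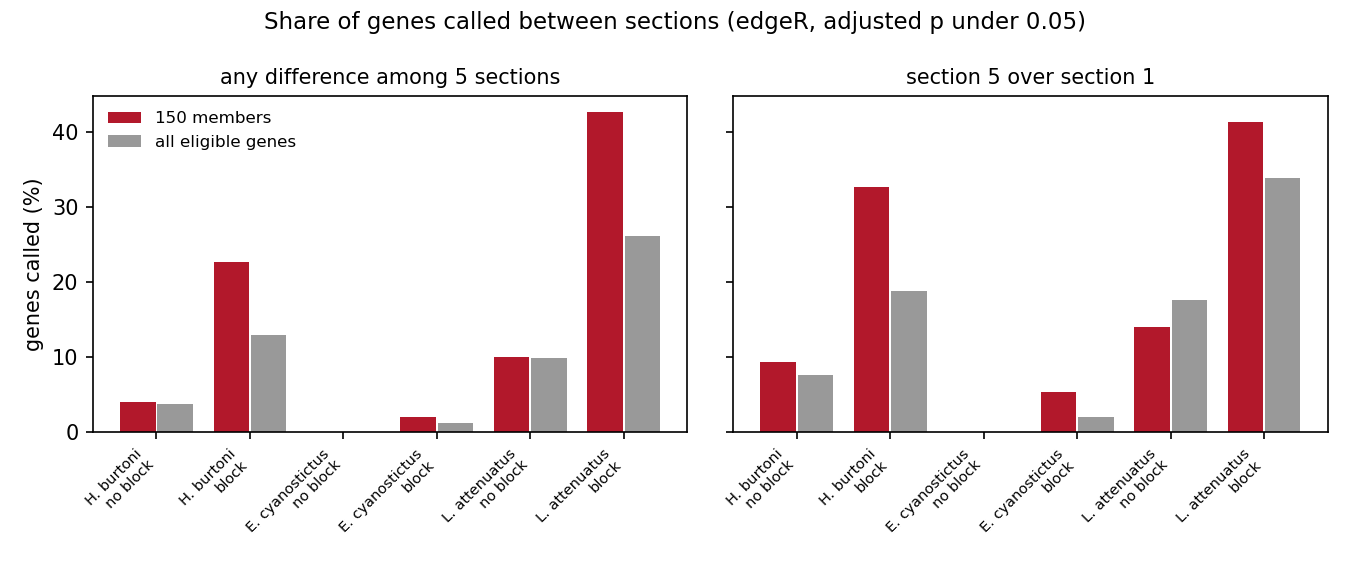
Percentage of genes called by edgeR (adjusted p under 0.05; vertical axis, from 0) among the 150 members (red) and all 11764 eligible genes (grey), for each species without and with fish as a block. Without the block the H. burtoni and L. attenuatus bars of members and eligible genes are close (4% and 3.69%, 10% and 9.90% in the left panel), and with it the members' bars are higher. The gap between fish, for which the members were chosen, is in the residual spread only without the block.

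Median section levels differed from those of other genes in where they peaked. In E. cyanostictus 79 members (52.7%) had their highest section mean in section 1, against 22.3% of eligible genes, and the 2 fish differed most there. In H. burtoni 70 members (46.7%) had their lowest mean in section 5, where 21.9% of eligible genes had theirs. The median log2 change of section means from 1 to 5 was -0.42 in H. burtoni and -0.59 in E. cyanostictus, against 0.09 and 0.13 over eligible genes. In L. attenuatus it was 0.39, near the 0.40 of eligible genes. The range over sections was wider than usual, with a median log2 range of 1.68 in L. attenuatus, 1.43 in H. burtoni and 1.31 in E. cyanostictus, against 0.72, 0.63 and 0.56. The bar on shared 4-fold changes removed genes with the steepest common gradients from both sides of this comparison. Each section mean is taken over the 2 fish whose summed gap chose the members. A high level in 1 section of 1 fish enters both, so these peaks and ranges are not independent of the choice.

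The test of differing section profiles called 1 member between L. attenuatus and H. burtoni, none (0) between E. cyanostictus and H. burtoni and none (0) between L. attenuatus and E. cyanostictus, against 0.459%, 0.0267% and 0.504% of all genes (edgeR, all 30 libraries). Unadjusted p-values under 0.05 were found for 14, 7 and 12 members (9.33%, 4.67% and 8%), against 8.26%, 5.93% and 7.79% of all genes. DESeq2 called 16, 5 and 5 members (10.7%, 3.33% and 3.33%). The shares of its wider set of genes with any count were 4.59%, 1.03% and 2.07%. With the block edgeR called 16, 5 and 9 members, against 3.27%, 1.5% and 2.89% of all genes. The member called without the block ranked 24th and was singled out after its values were seen. In H. burtoni it was at 1.35 and 1.19 CPM in section 1 and at 470 and 257 CPM in section 5, in fish 1 and 2. In L. attenuatus it went from 30.9 and 435 CPM in section 1 to 3.72 and 7.67 CPM in section 5, in fish 6 and 7. Its log2 change was 8.04 (SE 1.59, edgeR adjusted p = 0.0224) in H. burtoni and -5.72 (SE 1.63, adjusted p = 0.0498) in L. attenuatus, and the profiles differed at an edgeR adjusted p of 0.00972. With any 1 of the 4 fish left out the member was no longer called, and a smaller share of all genes was called as well. The cause of the lost call was not tested.

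Levels of the members over the whole gut in the 3 species are given as a description. The gap between fish, for which the members were chosen, enters both the species means and the overlaps. Nothing is therefore read from how they compare with eligible genes. Their median level was 48.1 CPM in E. cyanostictus, 45.7 CPM in H. burtoni and 30.5 CPM in L. attenuatus. The species with the highest mean exceeded the lowest by a median of 2.998-fold, against 1.69-fold for eligible genes. H. burtoni was highest for 78 members (52%; 27.5% of eligible genes) and L. attenuatus lowest for 86 (57.3%; 43.7%). The fish of L. attenuatus and H. burtoni did not overlap at 72 members (48%), those of L. attenuatus and E. cyanostictus at 54 (36%) and those of E. cyanostictus and H. burtoni at 49 (32.7%), while 67.9%, 61.5% and 62.3% of eligible genes did not.

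On the summed counts, given as a description, edgeR called 9 members between E. cyanostictus and H. burtoni (7 higher and 2 lower in E. cyanostictus), against 14.1% of all genes, of which 6.76% were higher and 7.35% lower. It called 11 between L. attenuatus and H. burtoni (2 higher and 9 lower in L. attenuatus), against 19.2% of all genes, 8.87% higher and 10.3% lower. Between L. attenuatus and E. cyanostictus it called 15 (4 higher and 11 lower), against 18.9%, 9.07% higher and 9.83% lower. Leaving out 1 fish moved these counts, and the share of all genes moved in the same direction each time. The residual spread of this test is the gap between fish for which the members were chosen, so nothing is read from these shares. Reads of all 3 species were counted on one set of gene IDs, and the part that unequal alignment plays in these contrasts was not tested.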

How the data were processed

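Bulk RNA-seq libraries of 5 gut sections from 2 fish in each of 3 cichlid species were analysed (30 libraries). The authors deposited 1 table of raw counts per gene ID. Trimmomatic, STAR and HTSeq are named in the submitters' processing notes, without versions or settings, and the genome build and annotation are not given in the sources used here. The 5 rows of unassigned reads were left out of library sizes and tests; reads outside counted gene sequence were 6.15% to 16.5% of a library and ambiguous ones 2.58% to 3.45%. No ID (0) matched the 28690 genes of the H. burtoni RefSeq table.

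Columns of H. burtoni carry the fish numbers of the labels. Those of E. cyanostictus (3, 4) and L. attenuatus (6, 7) do not, and were matched to species and section only, with the column's fish number kept. The labels say that each intestine was cut into sections, so a number marks 1 animal. Differences between fish correlated over eligible genes between all pairs of sections, from 0.177 to 0.80 in H. burtoni, 0.263 to 0.911 in E. cyanostictus and 0.309 to 0.833 in L. attenuatus.

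Tests used edgeR 4.0.16 in R 4.3.3 (filterByExpr, TMM, robust dispersions, quasi-likelihood test, Benjamini-Hochberg adjustment over all genes tested, adjusted p under 0.05), within a species for sections, on all 30 libraries for profiles and on summed counts for species. All 150 members passed every filter. An SE is the log2 change divided by the square root of F. DESeq2 1.42.0, RLE scaling, no filter, a fish block, other spreads and left-out fish were alternatives. The fits without a block were checked on simulated counts in which 200 genes changed 8-fold. They recovered 100% of these between sections, 72.5% for differing profiles and 98.5% over the whole gut. The simulated counts held no effect shared by the sections of 1 fish, so the check does not cover the gap between fish. Section means for the gradient bar were compared as log2(CPM + 1). Groups of members came from average linkage in scipy 1.17.1.

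The members and lists were chosen with earlier results of these data known. The rule for named IDs took, in the absence of symbols, the 2 highest scores with a mean change from section 1 to 5 above 0 and the 2 highest below 0. Lists of marker genes were not used, since they need symbols. The grouping of members, and the alternatives leaving out a section or a single library for counts of direction and of calls, were added after the data were seen.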

Additional observations from a re-analysis of the deposited data

Results flagged for a closer look

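The section profile differed between species at 1 member for L. attenuatus against H. burtoni, by a direct test of the difference (edgeR, adjusted p = 0.00972, and 0.00327 with fish as a block). It was higher in section 5 than in section 1 in 2 of 2 fish of H. burtoni and lower in 2 of 2 fish of L. attenuatus. The member was singled out after its values were seen. With any 1 of the 4 fish left out it was no longer called, and a smaller share of all genes was called as well.

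Gene ID 106098986 differed in section profile between all 3 pairs of species when fish was in the model as a block. The edgeR adjusted p was 0.000299 between L. attenuatus and H. burtoni (0.108 without the block). It was 0.0222 between L. attenuatus and E. cyanostictus (0.779 without the block), and 0.0328 between E. cyanostictus and H. burtoni (0.871 without the block). Within E. cyanostictus the ID did not differ among sections even with the block (edgeR adjusted p = 0.598).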

How the results depend on the processing

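Of 215 alternatives to 32 results, 143 kept the direction and side of the threshold, or a count within 1.5 times. RLE scaling and the absence of a filter on low counts kept all 12 counts of called members. The fish block and DESeq2 kept none of the counts they were applied to (9 and 12). The numbers pair the sections of 1 animal, and the blocked counts stand in the report: among sections 34, 3 and 64 members for H. burtoni, then E. cyanostictus, then L. attenuatus, between sections 5 and 1 49, 8 and 62, and for differing profiles 5 (E. cyanostictus against H. burtoni), 16 (L. attenuatus against H. burtoni) and 9 (L. attenuatus against E. cyanostictus). DESeq2 shares are over all genes with any count, a wider set than edgeR tested. In the same orders DESeq2 gave 27, 12 and 32 members among sections, against 9.74%, 3.96% and 11.2% of that set. Between sections 5 and 1 it gave 34, 9 and 35, against 9.04%, 2.99% and 12.5%. For profiles it gave 5, 16 and 5, against 1.03%, 4.59% and 2.07%. Over the whole gut it gave 26, 30 and 28, against 17.2%, 21.1% and 20.8%. With the spread taken from all 30 libraries the count between sections 5 and 1 was 3 in E. cyanostictus and 8 in H. burtoni. The shares of all genes were 2.49% and 6.54%. In the same fit 5 members differed among sections in E. cyanostictus, against 3.33% of all genes. Without the library of H. burtoni fish 2, section 4, more members differed among sections in that species, and so did a larger share of all genes.

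Leaving out 1 fish at a time leaves 1 library per section, assumed to vary like the other groups. Counts then ran from 1 to 2 members among sections in H. burtoni, 0 to 2 in E. cyanostictus and 0 to 1 in L. attenuatus. Between sections 5 and 1 they were 1 in H. burtoni, 0 to 2 in E. cyanostictus and 0 to 1 in L. attenuatus. For profiles they were 0 to 0 (E. cyanostictus against H. burtoni), 0 to 0 (L. attenuatus against H. burtoni) and 0 to 1 (L. attenuatus against E. cyanostictus), and over the whole gut 0 to 16, 1 to 2 and 2 to 22. No fish can be left out of the score itself, which needs 2. These fits have fewer samples, and those for sections within a species also take in the libraries of the other species. For sections in H. burtoni and L. attenuatus, and for profiles between them, fewer members were called and the share of all genes called fell too. For sections in E. cyanostictus the share of all genes was larger than in the fit to its own libraries. It was smaller there than with the spread from all 30 libraries. Over the whole gut the share of all genes moved in the same direction as the members' count each time. The cause of the lost calls was not tested.

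Of the 150 members, 83 stayed in the list at a mean of at least 20 CPM, 89 without section 1, 96 without section 3 and 97 without section 4. The groups shrank to 25 (group 1), 15 (group 2) and 5 (group 4) members under complete linkage, groups 2 and 4 to 23 and 7 at a distance of 0.4, and group 2 to 24 without the section 1 pair of E. cyanostictus.

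The log2 change from section 1 to 5 turned its sign, in no case past the threshold, at ID 106098986 without fish 4 (-0.29, against 3.04 without fish 3). At ID 100700688 it was 0.028 without fish 2 (-0.68 without fish 1), 0.48 without fish 3 (-0.31 without fish 4) and -1.22 without fish 6 (1.55 without fish 7). At ID 100708633 it was -0.11 without fish 2 (0.61 without fish 1), 1.47 without fish 4 (-2.03 without fish 3) and 1.53 without fish 7 (-2.31 without fish 6). At ID 100708221 it was 1.25 without fish 4 (-1.91 without fish 3) and 2.83 without fish 7 (-2.75 without fish 6). In L. attenuatus, ID 106098986 lost its call without fish 6 (10.18, adjusted p = 0.404) and without fish 7 (8.30, adjusted p = 0.245). The cause of these changes was not tested.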
